A study of Homo sapiens with 6 samples.

Results

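The 7 genes described here are long noncoding RNA genes whose transcripts carry or span microRNA hairpins: MIR210HG, MIR22HG, MIR17HG, MIR31HG, MIR155HG, MIRLET7BHG and MIR100HG. They are defined by their names, not by a threshold on measured values, although earlier results of these data were known when they were picked, out of 58478 genes obtained by summing the transcript rows of the table by gene (GENCODE release 29). Of these genes, 83 have names of this host gene form, and the other 76 were used for comparison. Huh7, a line from a human hepatocellular carcinoma, was labelled WT and kept for 24 h at 21% oxygen (normoxia, 3 libraries) or at 1% oxygen (hypoxia, 3 libraries). The only comparison is hypoxia against normoxia in this 1 line. Libraries are named by their columns, C1 to C3 for normoxia and C4 to C6 for hypoxia. How the replicate cultures were made is not described in the labels, so a p-value here reflects only the scatter among these libraries, which may be technical.

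A microRNA is cut from a hairpin in a longer host transcript, first in the nucleus by DROSHA with DGCR8, and then, after export by XPO5, in the cytoplasm by DICER1. The mature strand is loaded into an Argonaute protein and pairs with messenger RNAs mainly through its seed, the bases from position 2 to position 8. MIR210HG hosts miR-210, the microRNA best known for induction by the hypoxia-inducible factors (HIF). MIR17HG hosts the miR-17-92 cluster, known as a proliferation-promoting cluster activated by MYC, and MIRLET7BHG and MIR100HG host members of the let-7 family, known to restrain growth and MYC. The libraries held long RNA, so what follows are levels of host transcripts, not of mature microRNAs. All 17 hairpin rows that lie inside the 7 genes stood at 0 expected counts in the 6 libraries, and the labels describe no small RNA library.

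RefSeq (GRCh38.p14) lists 34 mature sequences inside the 7 genes, with 33 distinct names, and all 7 genes matched. Those below are the strands usually named for each host, shown because the genes fall into groups by shared seeds. Capitals mark the seed.
miR-210-3p: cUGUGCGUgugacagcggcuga
miR-22-3p: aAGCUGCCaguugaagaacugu
miR-31-5p: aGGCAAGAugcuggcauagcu
miR-155-5p: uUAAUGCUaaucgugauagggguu
miR-17-5p: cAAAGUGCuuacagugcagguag
miR-20a-5p: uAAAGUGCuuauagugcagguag
miR-18a-5p: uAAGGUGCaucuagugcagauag
miR-19a-3p: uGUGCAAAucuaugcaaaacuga
miR-19b-3p: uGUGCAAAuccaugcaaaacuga
miR-92a-3p: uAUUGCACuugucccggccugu
let-7a-5p: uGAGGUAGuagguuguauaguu
let-7b-5p: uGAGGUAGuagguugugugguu
miR-100-5p: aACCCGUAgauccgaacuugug
miR-125b-5p: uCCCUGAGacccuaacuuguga

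Within MIR17HG, miR-17-5p and miR-20a-5p shared the seed AAAGUGC, and miR-19a-3p and miR-19b-3p shared GUGCAAA. The seed GAGGUAG was common to let-7a-5p and let-7b-5p, and the same let-7a-5p sequence lies in both MIRLET7BHG and MIR100HG, so these hosts share a product. The seeds of miR-210-3p, miR-22-3p, miR-31-5p and miR-155-5p each occurred once among the 34. The miR-210-3p sequence lies at chr11:568112-568133 on the minus strand, inside MIR210HG.

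Expected counts, which are reads divided among transcripts by the submitters' software, summed to between 37621426 and 40794783 per library. The libraries were short of most markers of the labelled hepatocyte lineage. Of 10 hepatocyte markers, 4 (AFP, APOA1, TTR and GPC3) had no counts in any library and 7 were under 1 CPM in both groups, while the list summed to between 8.87 and 10.7 CPM under normoxia and between 20.8 and 21.6 CPM under hypoxia. The 3 that could be tested rose, beside 6348 of all 17396 tested genes. SERPINA1 went from 0.0670 to 1.83 CPM, HNF4A from 1.297 to 7.01 CPM and TF from 8.24 to 12.1 CPM. SERPINA1, at 0.126 CPM or less in normoxia, could be tested only because of its hypoxia libraries. The line is called Huh7 as labelled, and its identity was not tested. CPM is the usual count scaled to a common library size. In bulk RNA such as this, fewer cells that express a gene and less RNA of it per cell cannot be told apart. In edgeR's quasi-likelihood test with Benjamini-Hochberg adjustment, 72.8% of the 17396 genes tested changed at an adjusted p under 0.05, and for 75.7% the libraries of the groups did not overlap. Against that background, 5 of the 6 members tested changed (3 rose and 2 fell) and the same number had groups that did not overlap. MIR155HG had no counts and was not tested. The median log2 change was 0.23 over the 6 members and 0.02 over all genes tested.

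**Figure D1:**
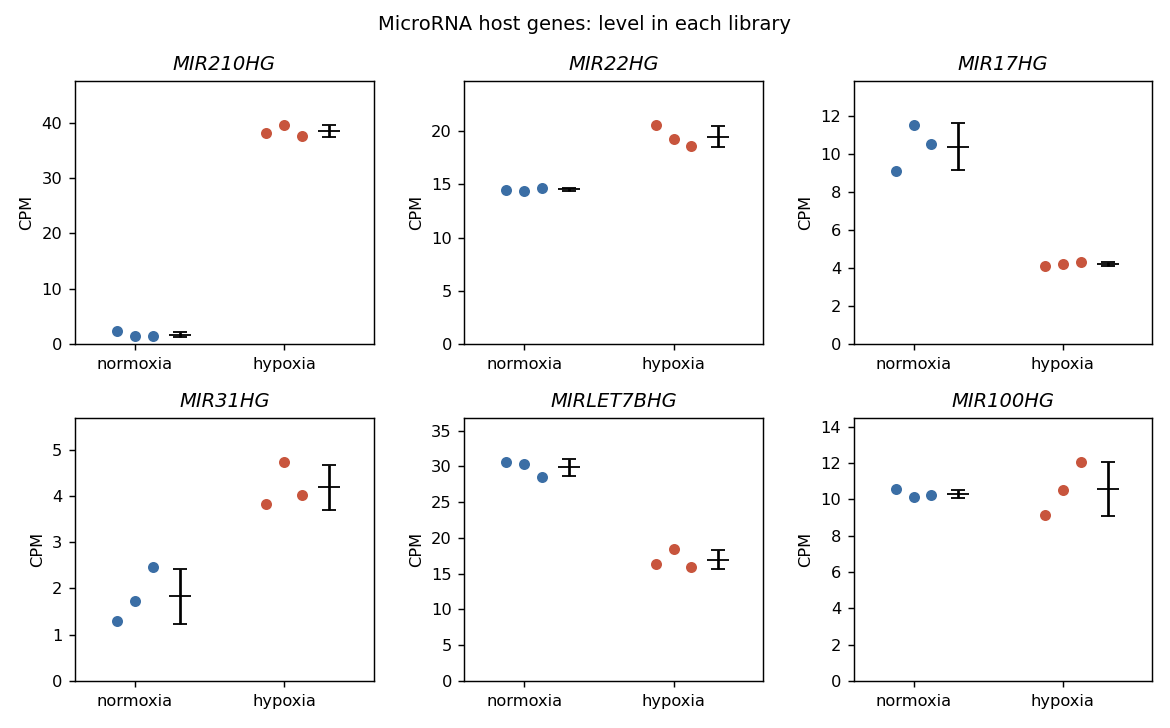
Level of the 6 tested host genes in each library, in CPM on linear axes from 0. Points are libraries and the black marks give the mean and SD (n = 3). MIR210HG stood at 1.395 to 2.32 CPM in normoxia and 37.6 to 39.6 CPM in hypoxia, and only in the MIR100HG panel do the groups overlap.

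MIR210HG (ENSG00000247095.2, chr11:565660-568457, minus strand, GRCh38) had the largest change of the members tested. Its expected counts were 92.1, 55.8 and 60.6 in normoxia and 1363, 1375 and 1255 in hypoxia, or 2.32, 1.395 and 1.546 CPM against 38.2, 39.6 and 37.6 CPM. Every hypoxia library was far above every normoxia library, and within normoxia C1 was the highest. The mean rose from 1.75 ± 0.496 to 38.5 ± 1.04 CPM (SD, n = 3). On the log2 scale the difference was 4.45 ± 0.13 (SE), 21.9-fold, with an edgeR adjusted p of 4.55e-10.

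The gene is summed from 4 transcript rows, all with counts, of which 3 could be tested and rose. Among these, ENST00000500447 could be tested only because of its hypoxia libraries. In a fit over all transcript rows, 29.5% of 74527 tested rows changed. ENST00000534540 held 61.8% to 64.4% of the gene's counts in hypoxia and 37.7%, 68.0% and 77.0% in normoxia, at 34.7, 38.0 and 46.7 in normoxia against 842.5, 884.8 and 788.6 in hypoxia, a log2 change of 4.55 ± 0.16 (edgeR adjusted p = 1.89e-05). ENST00000533920 went from 33.8, 17.9 and 13.9 to 129.1, 178.5 and 171.6 expected counts, a log2 change of 3.03 ± 0.39 (edgeR adjusted p = 0.00233). It made up between 23.0% and 36.7% of the gene under normoxia and between 9.47% and 13.7% under hypoxia. ENST00000500447 went from 17.4, 0 and 0 to 244.6, 174.9 and 289.2 expected counts (edgeR adjusted p = 0.0206). That call was lost without any 1 of the hypoxia libraries (adjusted p = 0.0607 without C4, 0.0507 without C5 and 0.0669 without C6). The remaining row, ENST00000528245, was untested and uneven within hypoxia, at 146.6, 136.6 and 5.71 expected counts. In release 29 the miR-210 hairpin lies in an intron of all 4 rows, but the deposited length equals that of release 29 for 1 of them, so the others may have another exon structure in the annotation that was used.

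The start region of MIR210HG is shown because HIF binds a short motif, ACGTG or GCGTG, and this gene changed most. The RefSeq window (chr11:568408-568707, minus strand, GRCh38.p14) runs from 250 bases before the start to 50 bases after it, with matches to that motif on either strand in capitals.
MIR210HG start region: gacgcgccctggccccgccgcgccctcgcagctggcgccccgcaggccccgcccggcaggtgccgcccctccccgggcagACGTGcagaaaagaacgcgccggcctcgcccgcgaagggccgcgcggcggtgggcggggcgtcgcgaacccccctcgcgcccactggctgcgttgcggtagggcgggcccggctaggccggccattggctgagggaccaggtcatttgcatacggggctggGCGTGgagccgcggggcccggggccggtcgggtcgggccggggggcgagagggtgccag
The window held ACGTG 170 bases and GCGTG 9 bases before the start. Of 35116 windows of 300 bases in the same set, 48.4% held at least 1 match on either strand (where the motif reads CACGT or CACGC on the opposite one) and 23.1% held 2 or more. The windows of MIR22HG, MIR155HG and MIRLET7BHG also held 2 matches each. Those of MIR17HG and MIR31HG held 0, and MIR100HG had 1 match in 1 of its 6 windows. The window of MIRLET7BHG, which fell, held 2 matches and that of MIR31HG, which rose, held 0. A window need not hold the start in use. That of MIR31HG lies from base 21559749 upward, and its only row starts at base 21559669 on the minus strand. That of MIR17HG ends at base 91347736, and its first row starts at base 91347820. The 0 matches of these genes thus come from windows that hold no start of a counted row. The window of MIR22HG ends at base 1716460, and the row ENST00000577164 of that gene starts at base 1717174. Matches describe letters, not binding, and their part in the changes was not tested.

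MIR31HG (ENSG00000171889.3, chr9:21455642-21559669, minus strand), the host of miR-31 and a transcript studied in senescence, was low and rose. It stood at 1.29, 1.72 and 2.47 CPM in normoxia and 3.82, 4.74 and 4.02 CPM in hypoxia. All hypoxia libraries were above all normoxia libraries, although normoxia was spread, from 51.4 expected counts in C1 to 97.0 in C3. The mean went from 1.83 ± 0.597 to 4.19 ± 0.488 CPM (SD, n = 3). On the log2 scale the difference was 1.198 ± 0.224 (SE), 2.29-fold, edgeR adjusted p = 0.000648. On the log2(FPKM + 1) scale in limma, which shrinks low genes, the change was 0.52. Its only row, ENST00000304425, gave 1.16 ± 0.29 in the transcript fit (edgeR adjusted p = 0.0287). This edgeR call was lost with no filter (adjusted p = 0.0539). It was also lost without normoxia C1 (adjusted p = 0.0608), normoxia C2 (0.0984) or any hypoxia library (0.0641 to 0.0868). In release 29 the miR-31 hairpin lies in an intron of this row. Its deposited length is 2702 against 745 there, so its exons are uncertain.

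MIR22HG (ENSG00000186594.14, chr17:1711493-1717174, minus strand), the host of miR-22, rose by a small amount. Its level was 14.5, 14.3 and 14.7 CPM in normoxia and 20.6, 19.2 and 18.6 CPM in hypoxia. The normoxia libraries were nearly equal and all lay under the hypoxia libraries. The mean went from 14.5 ± 0.163 to 19.5 ± 1.00 CPM (SD, n = 3). On the log2 scale the difference was 0.42 ± 0.07 (SE), 1.34-fold, edgeR adjusted p = 0.000249. With library totals in place of TMM scaling it was 0.27.

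The rise of the MIR22HG sum was not seen in its most abundant row. ENST00000574306 held 558.7, 534.8 and 537.5 expected counts in normoxia and 533.3, 429.9 and 387.6 in hypoxia, with C4 close to the normoxia libraries and C5 and C6 under them. Its log2 change was -0.11 ± 0.12 (edgeR adjusted p = 0.543). The other rows together held 17.5, 39.6 and 38.2 expected counts in normoxia and 199.9, 237.3 and 234.0 in hypoxia. Their share of the gene was 3.03%, 6.90% and 6.64% in normoxia and 27.3%, 35.6% and 37.6% in hypoxia. Among them, ENST00000577164 went from 0, 0 and 5.47 to 48.8, 98.8 and 76.4 expected counts (edgeR adjusted p = 0.016, or 0.0559 without hypoxia C5), with its fitted fold resting on the counts of normoxia C3. ENST00000608198, at 4.91, 0 and 20.7 against 40.7, 67.3 and 135.1, had a log2 change of 3.37 ± 1.21 and an edgeR adjusted p of 0.0875. ENST00000577164 and ENST00000608198 could be tested only because of their hypoxia libraries. How RSEM divided reads between these rows was not tested. By the exons of release 29 the miR-22 hairpin is exonic in all 12 rows with counts, of which 1 has the same length there.

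**Figure D2:**
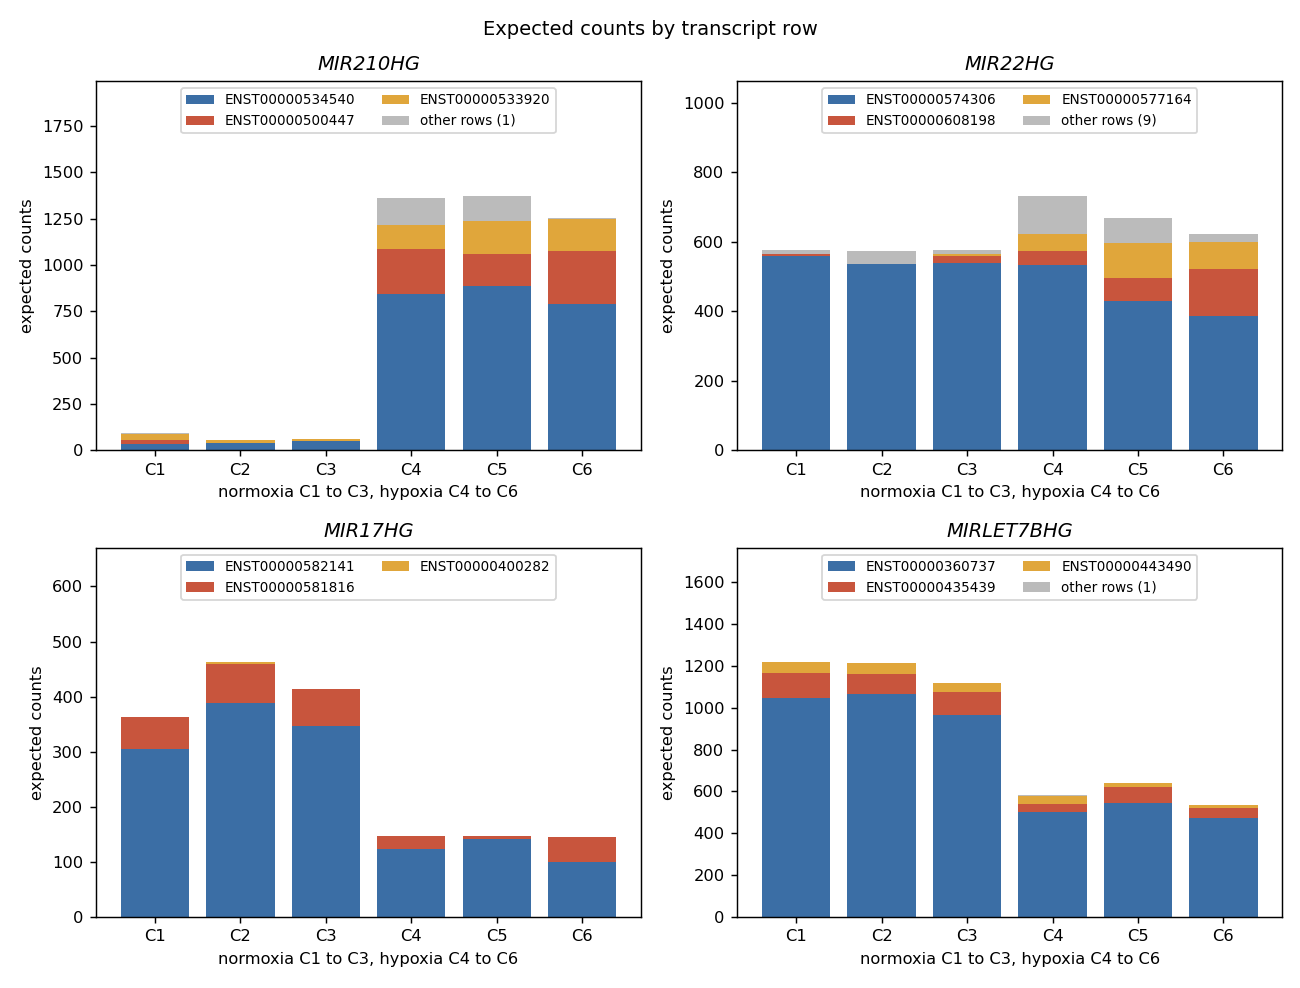
Expected counts in each library for MIR210HG, MIR22HG, MIR17HG and MIRLET7BHG, stacked by transcript row (the 3 rows with most counts in colour, other rows with counts in grey). The MIR22HG bars show ENST00000574306 at 387.6 to 558.7 expected counts throughout and the other rows at 199.9 to 237.3 in hypoxia.

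MIR17HG (ENSG00000215417.12, chr13:91347820-91354579, plus strand), the host of the miR-17-92 cluster, fell. It measured 9.12, 11.6 and 10.6 CPM in normoxia and 4.12, 4.21 and 4.35 CPM in hypoxia. The hypoxia libraries lay within a narrow band, at 145.1 to 147.0 expected counts, and all were under the lowest normoxia library (362.0). From 10.4 ± 1.23 CPM the mean fell to 4.23 ± 0.113 CPM (SD, n = 3). On the log2 scale the difference was -1.30 ± 0.11 (SE), 2.46-fold lower, edgeR adjusted p = 2.01e-06.

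Its rows differ in what they do with the hairpins, and all 3 have the lengths of release 29. ENST00000582141, annotated as a retained intron, and ENST00000581816 contain all 6 hairpins in an exon, whereas in ENST00000400282 the hairpins are intronic. ENST00000582141 held 304.8, 388.9 and 346.2 expected counts in normoxia and 123.0, 141.6 and 99.3 in hypoxia, a log2 change of -1.35 ± 0.18 (edgeR adjusted p = 0.0028). ENST00000581816 went from 57.2, 71.1 and 68.3 to 24.0, 4.34 and 45.8, with wide spread in hypoxia, and did not pass (log2 change -1.22 ± 0.77, edgeR adjusted p = 0.292). The row with intronic hairpins had 2.28 expected counts, all in normoxia C2. Nearly all MIR17HG signal in either group thus came from rows that contain the hairpin sequence.

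MIRLET7BHG (ENSG00000197182.14, chr22:46053869-46113928, plus strand), the host of let-7a-3 and let-7b, fell as well. It stood at 30.7, 30.4 and 28.5 CPM in normoxia and 16.4, 18.4 and 16.0 CPM in hypoxia, with a wide gap between the groups. The mean fell from 29.9 ± 1.16 to 16.9 ± 1.31 CPM (SD, n = 3). On the log2 scale the difference was -0.82 ± 0.07 (SE), 1.76-fold lower, edgeR adjusted p = 1.86e-06. The row ENST00000360737, whose exons contain the let-7a-3, miR-4763 and let-7b hairpins, held 85.0% to 89.0% of the gene. It fell from 1047, 1066 and 967.0 to 503.2, 543.5 and 474.8 expected counts, a log2 change of -0.85 ± 0.08 (edgeR adjusted p = 0.000575). ENST00000435439 and ENST00000443490, which do not span those hairpins in release 29, had log2 changes of -0.84 ± 0.33 and -1.02 ± 0.41 and did not pass (edgeR adjusted p = 0.108 and 0.116). Without hypoxia C5 the first of these passed (adjusted p = 0.031), and without hypoxia C4 the second (0.0425). With all libraries, both passed with limma on log2(FPKM + 0.5) (adjusted p = 0.0483 and 0.0388). MIRLET7BHG shares 52 exon bases with PRR34 on the opposite strand and 52 with PRR34-AS1 on the same strand, and the strand setting of the counting is not stated.

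MIR100HG (ENSG00000255248.8, chr11:122028327-122556721, minus strand), the host of miR-100, let-7a-2 and miR-125b-1, did not pass the test. It measured 10.6, 10.1 and 10.2 CPM in normoxia and 9.12, 10.5 and 12.1 CPM in hypoxia. Hypoxia spread to both sides of normoxia. The means were 10.3 ± 0.219 and 10.6 ± 1.48 CPM (SD, n = 3). The log2 difference was 0.04 ± 0.11 (SE), edgeR adjusted p = 0.778, and its sign turned with library totals (-0.12), with limma on log2(FPKM + 0.5) (-0.024) and without hypoxia C6 (-0.07). It was the most divided of the genes, with 39 transcript rows, 25 of them with counts, 7 tested and none past the threshold in edgeR. The most abundant, ENST00000647967, had 125.5, 104.5 and 105.1 expected counts in normoxia and 67.2, 116.6 and 107.6 in hypoxia. ENST00000648576 had 71.8, 58.0 and 74.0 against 40.0, 35.4 and 22.3, with no overlap, a log2 change of -0.91 ± 0.31 and an edgeR adjusted p of 0.0736. ENST00000532315 was at 62.8, 64.2 and 34.2 against 77.6, 81.2 and 62.7, a log2 change of 0.63 ± 0.31 (edgeR adjusted p = 0.187). In release 29 none of the 25 rows has the miR-100, let-7a-2 or miR-125b-1 hairpin in an exon. MIR100HG shares 83 exon bases with BLID and 143 with ENSG00000255015 on the same strand.

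MIR155HG (ENSG00000234883.5, chr21:25561909-25575168, plus strand), the host of miR-155 and known from activated B cells and macrophages, had 0 counts in all 6 libraries. A count of 0 allows up to 3 counts per library, or 0.0750 to 0.0765 CPM in normoxia and 0.0842 to 0.0898 CPM in hypoxia, for counting error alone. Of 5 B cell markers, MS4A1, CD79A and PAX5 were at 0 as well, 4 were under 1 CPM in both groups, and the list summed to between 0.176 and 0.536 CPM under normoxia and between 0.868 and 1.43 CPM under hypoxia. Of 5 myeloid markers, PTPRC was at 0 and 3 were under 1 CPM in both groups. The myeloid list summed to between 7.19 and 7.25 CPM under normoxia and between 48.0 and 57.0 CPM under hypoxia. CD68, a lysosomal protein gene, rose from 6.19 to 46.4 CPM, and CSF1R, a receptor of the macrophage lineage, from 0.376 to 4.85 CPM (12.7-fold, edgeR adjusted p = 7.71e-06). CSF1R could be tested only because of its hypoxia libraries. LYZ, at 0.511 and 0.785 CPM, did not pass (edgeR adjusted p = 0.13). CD14, which was not tested, went the other way, from 0.151 to 0.0866 CPM. The 5 T cell markers were under 1 CPM in both groups. Of 4 tested of 5 endothelial markers 2 rose and 2 fell, and KDR was at 0. PECAM1 rose from 2.11 to 4.86 CPM and TEK from 0 to 0.337 CPM. TEK, at 0 in all normoxia libraries, could be tested only because of its hypoxia libraries. CDH5 fell from 9.15 to 0.453 CPM and VWF from 0.504 to 0.196 CPM. VWF could be tested only because of its normoxia libraries, where it was higher. Of 2 tested of 5 fibroblast markers PDGFRB rose from 2.13 to 6.11 CPM and COL1A1 fell from 71.4 to 56.9 CPM, and COL1A2 was at 0. These marker counts stand beside the 72.8% of all tested genes that changed. The part of the marker changes in the host gene values was not tested.

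Levels of different genes were set side by side per length, as FPKM worked out anew (expected count over the length given for the transcript and over the library total) and summed over each gene's rows. In normoxia the order was MIRLET7BHG (7.82 ± 0.319 FPKM, SD, n = 3), MIR100HG (6.26 ± 0.204), MIR22HG (5.59 ± 0.0361), MIR17HG (3.85 ± 0.452), MIR210HG (1.83 ± 0.455), MIR31HG (0.668 ± 0.219) and MIR155HG (at 0). No neighbours in that order overlapped. In hypoxia MIR210HG was first at 33.6 ± 2.12 FPKM (SD, n = 3), followed by MIR22HG (7.13 ± 0.501), MIR100HG (6.17 ± 0.711), MIRLET7BHG (4.02 ± 0.363), MIR17HG (1.41 ± 0.108) and MIR31HG (1.38 ± 0.145), with MIR155HG at 0. There the libraries of MIR22HG and MIR100HG overlapped, and so did those of MIR17HG and MIR31HG. MIR210HG thus moved from rank 5 to rank 1, MIRLET7BHG from rank 1 to rank 4, and MIR17HG, which stood above MIR31HG in normoxia, came level with it.

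**Figure D3:**
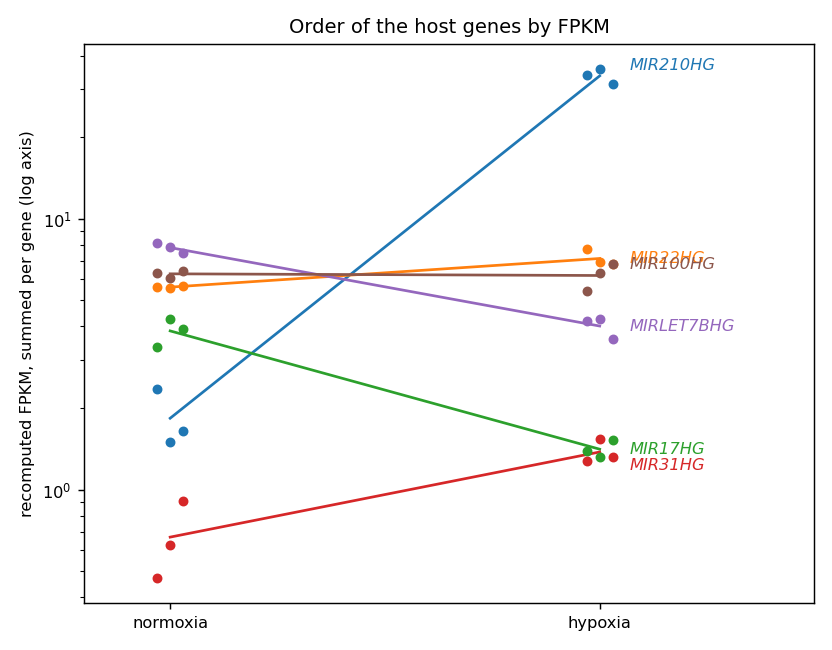
Recomputed FPKM summed per gene in each library (points) with lines between group means, on a log axis. MIR155HG, at 0, is not drawn. MIR210HG crosses the lines of MIR17HG, MIR22HG, MIRLET7BHG and MIR100HG, from 1.83 to 33.6 FPKM on average.

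Among the other 76 genes with host gene names, 21 were tested. Of these 7 rose, 5 fell and 9 did not pass, so 57.1% changed, beside 72.8% of all genes and 58.0% of 3032 tested long noncoding RNA genes, and their median log2 change was 0.14. MIR29B2CHG, the host of miR-29b-2 and miR-29c, went from 30.2, 29.7 and 31.6 CPM to 155.3, 148.5 and 150.0 CPM, a log2 change of 2.31 ± 0.05 (edgeR adjusted p = 2.92e-11). MIR34AHG, the host of miR-34a, a p53 target, rose from 14.5 ± 0.677 to 56.7 ± 3.18 CPM (SD, n = 3, 3.91-fold), and MIR193BHG from 13.4 ± 0.862 to 48.8 ± 1.08 CPM (3.66-fold). MIR34AHG shares 431 exon bases with LNCTAM34A on the opposite strand. MIR181A2HG rose from 0.0882 to 0.478 CPM and MIR9-1HG from 0.558 to 1.61 CPM, both low, and the first had no counts in normoxia C3. The log2 change of MIR181A2HG, which could be tested only because of its hypoxia libraries, was 2.48, or 3.55 without normoxia C1. MIR4280HG (log2 change 0.63, edgeR adjusted p = 0.015) lost its call without normoxia C2 (0.49), with library totals (0.48) and with limma on FPKM. MIR210HG had a larger log2 change than any of these, at 4.45.

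Hosts of let-7 seeds can be read side by side. MIRLET7IHG, whose let-7i-5p has the seed GAGGUAG, fell from 5.51 ± 0.312 to 3.38 ± 0.271 CPM (SD, n = 3), or -0.70 ± 0.13 on the log2 scale (edgeR adjusted p = 0.00046). MIR99AHG carries let-7c-5p, miR-99a-5p (with the seed of miR-100-5p, ACCCGUA) and miR-125b-5p, and fell from 1.996, 2.69 and 1.85 to 0.745, 1.10 and 0.251 CPM, a log2 change of -1.63 ± 0.40 (edgeR adjusted p = 0.00353). MIR99AHG could be tested only because of its normoxia libraries, where it was higher. MIR4458HG, with the same let-7 seed in miR-4458, fell from 11.2 to 8.64 CPM (log2 change -0.37 ± 0.09, edgeR adjusted p = 0.00298). With MIRLET7BHG, 4 of the 5 tested hosts with a let-7 seed fell, and MIR100HG was the one that did not pass, beside 6321 of all 17396 tested genes and 5 of the 21 other tested host genes that fell, 3 of which are among the 4. MIR762HG also fell (edgeR adjusted p = 0.0488), with overlapping groups, and could be tested only because of its normoxia libraries. MIR4458HG and MIR762HG were named after their values were seen.

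**Figure D4:**
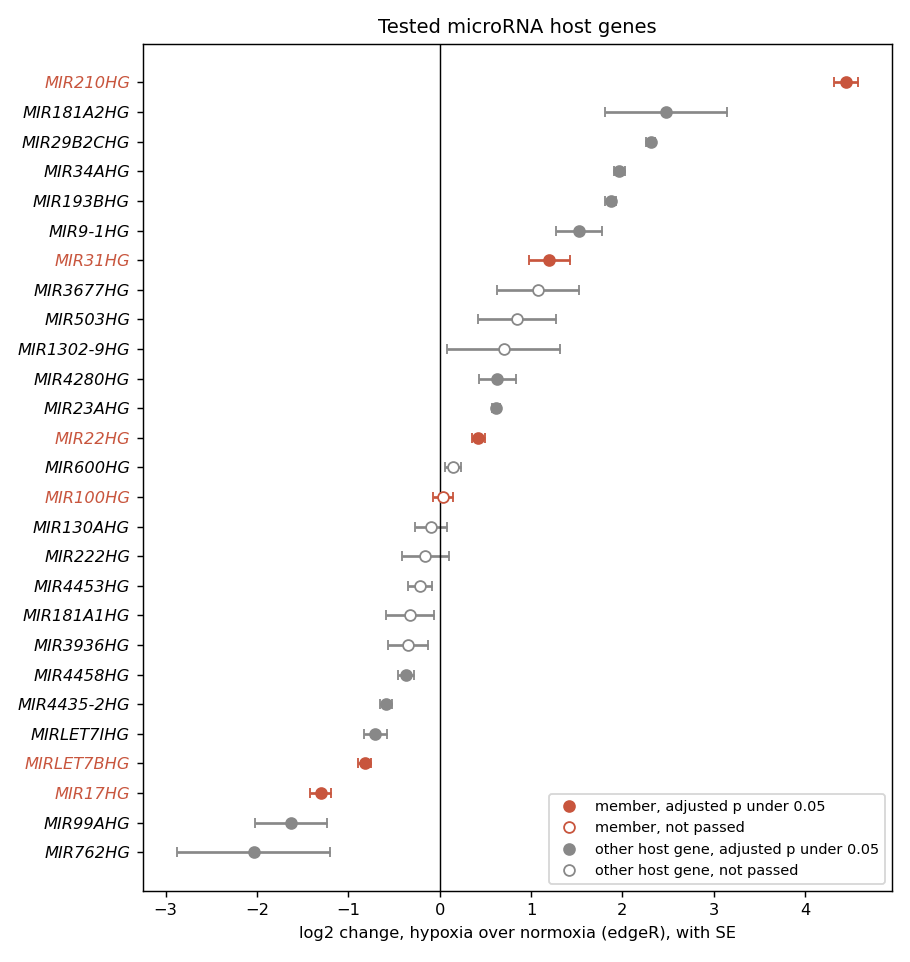
Log2 change of the 27 tested host genes, hypoxia over normoxia, with SE (bars) from edgeR. Members are in red and the others in grey, filled where the adjusted p was under 0.05. MIR210HG is farthest to the right at 4.45, and MIR17HG (-1.30) and MIRLET7BHG (-0.82) are the members on the left.

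Protein-coding neighbours did not share the size of the MIR210HG change. RASSF7, 1639 bases away, stood at 7.55, 7.67 and 6.78 CPM against 8.05, 8.79 and 8.41 CPM and did not pass (log2 change 0.20 ± 0.10, edgeR adjusted p = 0.0885, or 0.0315 with upper-quartile scaling). PHRF1, 8029 bases to the other side, had a log2 change of 0.26 ± 0.06 (edgeR adjusted p = 0.00175), a call lost with library totals (0.10) and with limma on FPKM. Beside MIR22HG, TLCD2 fell (-0.80 ± 0.12) and so did WDR81 (-0.37 ± 0.09), which overlaps MIR22HG on the opposite strand. In release 29 MIR22HG and WDR81 share no exon bases. The MIR22HG row that reaches WDR81, ENST00000577164, has a deposited length of 2876 against 931 there, so its exons are uncertain. Around MIR17HG, GPC5 rose from 1.69 to 3.56 CPM while the host fell, and SLITRK5, 3651548 bases away, fell by 0.80 on the log2 scale. IFNE, an interferon gene inside MIR31HG on the same strand, rose from 0.437 to 0.888 CPM (2.02-fold, edgeR adjusted p = 0.0095), and MTAP, on the other side of it, fell from 74.5 to 39.2 CPM. Around MIRLET7BHG, WNT7B rose (0.67 ± 0.07) and PPARA fell (-0.37 ± 0.05). Next to MIR155HG, MRPL39 gave 18.4 CPM in normoxia, so counts were present 10488 bases from a gene at 0.

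The protein-coding genes with the most similar profiles were found by Euclidean distance between centred log2(CPM + 0.1) values over the 6 libraries, among 11981 genes. For MIR210HG they were ITGAX (distance 0.266), FAM83F (0.269) and CECR2 (0.275). For MIR31HG they were MYOM1 (0.387), TAS2R19 (0.400) and ADAMTS13 (0.403), and for MIR22HG MTIF3 (0.0559), GMEB1 (0.0617) and OTUB1 (0.0645). MIR17HG lay nearest to GPX8 (0.111), SMIM19 (0.125) and TMEM150A (0.143), MIRLET7BHG to HSPB1 (0.0621), MDH2 (0.0653) and ZSCAN32 (0.0655), and MIR100HG to ELP6 (0.109), FBXO25 (0.126) and DYNLT2B (0.128). Over 6 libraries in 2 groups, a small distance mainly means a change of similar size in log2(CPM + 0.1). The added 0.1 shrinks the change of low genes. ITGAX, at 0.118 CPM in normoxia, had an edgeR log2 change of 5.24, against 4.45 for MIR210HG.

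The machinery that turns host transcripts into microRNAs was measured in the same libraries. For the lists that follow, the background is the 72.8% of all 17396 tested genes that changed, 6348 up and 6321 down. Of 7 Microprocessor and export genes, 2 rose and 5 fell (median log2 change -0.31). DROSHA, the nuclear nuclease, fell from 109.8 to 56.0 CPM and the exporter XPO5 from 186.1 to 98.6 CPM, while DGCR8, the partner of DROSHA, rose from 47.5 to 79.8 CPM. Of 12 dicing and loading genes, 2 rose and 7 fell (median -0.28), among them the chaperone HSP90AB1 (2.84-fold lower). Of 11 tested of 14 tailing and decay genes, 3 rose and 7 fell (median -0.25), and ZSWIM8, the ligase subunit of target-directed microRNA decay, rose 2.25-fold. Of the latter lists 75.0% and 90.9% of the tested genes changed, beside 72.8% of all genes.

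Messenger RNAs reported elsewhere as targets of these microRNAs were counted from lists taken from general knowledge. Of 14 reported miR-210 targets, 3 rose and 6 fell in edgeR (64.3% changed, beside 72.8% of all genes, median log2 change -0.10), with 3 and 8 under library totals and 5 and 6 under upper-quartile scaling. GPD1L, a protein related to glycerol-phosphate dehydrogenase, fell from 30.9 to 8.29 CPM. EFNA3, an ephrin ligand, rose from 14.4 to 58.9 CPM and FGFRL1, a decoy-type receptor, from 57.6 to 129.9 CPM. ISCU, an iron-sulfur cluster scaffold, stood at 43.8 and 45.9 CPM and did not pass (edgeR adjusted p = 0.245).

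Of 12 tested reported let-7 targets, 2 rose and 9 fell, with a median of -0.50 (91.7% changed, beside 72.8% of all genes), or 1 and 9 under library totals. MYC fell from 1001 to 322.7 CPM, the cell cycle phosphatase CDC25A from 47.8 to 13.3 CPM and the RNA-binding IGF2BP3 from 84.2 to 52.7 CPM, while ARID3B rose from 17.0 to 41.2 CPM. MIRLET7BHG fell in the same comparison. Of 12 miR-17-92 targets, 4 rose and 7 fell (median -0.33, 91.7% changed), or 2 and 8 under library totals and 4 and 6 under upper-quartile scaling. The cell cycle inhibitor CDKN1A rose from 56.8 to 456.6 CPM, whereas CCN2, a matricellular protein, fell from 3.38 to 0.615 CPM and the cell cycle factor E2F2 from 37.6 to 12.3 CPM.

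Of 8 miR-22 targets, 1 rose and 3 fell (median -0.14), so 4 changed, beside 72.8% of all genes. That split was 1 and 5 under library totals, 1 and 4 with limma on FPKM and 3 and 1 under upper-quartile scaling, and it was 1 and 2 without normoxia C1 or C2 and 1 and 1 without normoxia C3, hypoxia C4 or hypoxia C5. TET2, a DNA demethylase, rose from 47.9 to 149.9 CPM and MECOM fell from 35.0 to 14.8 CPM. Of 7 tested miR-31 targets, 2 rose and 3 fell (median -0.07, 71.4% changed), or 2 and 5 under library totals and with limma on FPKM, and 2 and 2 under upper-quartile scaling or without any 1 of normoxia C1, normoxia C2, hypoxia C5 and hypoxia C6. The integrin ITGA5 rose from 193.3 to 1421 CPM and RDX, a cytoskeletal linker, fell from 166.8 to 71.5 CPM. Of 9 miR-155 targets, 7 rose and 0 fell (median 1.55, 77.8% changed, beside 72.8% of all genes), with INPP5D, a phosphatase of immune signalling, going from 0.346 to 3.10 CPM and CEBPB, a transcription factor, from 84.8 to 277.4 CPM, in libraries where MIR155HG had 0 counts. INPP5D could be tested only because of its hypoxia libraries. Of 12 miR-100 and miR-125b targets, 5 rose and 7 fell (median -0.49), so all 12 changed, or 4 and 7 under library totals, among them PRDM1 (5.65-fold higher) and FGFR3 (3.12-fold lower). The part of any microRNA in these values was not tested, since mature microRNAs were not measured.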

How the data were processed

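RNA of 6 libraries labelled Huh7 was sequenced, 3 per condition. The libraries were rRNA-depleted, strand-specific and paired-end, per the labels' protocols. The submitters' processing notes name cutadapt, HISAT2 and RSEM, with GRCh38 (hg38). Versions, annotation and strand setting were not given in the sources used here. For 251062 Ensembl transcript rows the authors deposited expected counts, which divide reads among transcripts and need not be whole. The 6 deposited FPKM columns were not used. Instead FPKM was calculated from each row's expected count, its listed length and the library total, also for limma, where the plan named the deposited values.

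The members and the gene lists were chosen with earlier results of these data known. Rows were summed to genes with GENCODE release 29. No gene was found for 48155 rows, which held 6.12% to 6.39% of counts and stayed out. Deposited lengths equalled those of release 29 for 86.7% of the rows with a gene, so exon positions are certain only for those. Column names gave the condition, and their numbers matched no replicate label.

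Gene sums were rounded, filtered with filterByExpr, scaled by TMM and tested with edgeR 4.0.16 (quasi-likelihood, two-sided, Benjamini-Hochberg over 17396 genes, threshold 0.05). Transcript rows were tested in the same way. The SE is the size of the log2 change divided by the square root of F. Floors are 3 counts per library. The code was tested on simulated data. Named genes were all 7 members with their rows, up to 8 other host genes with the largest changes past the threshold and no overlap, the nearest tested protein-coding genes, the 3 most similar protein-coding genes (mean CPM of 1 or more), and up to 4 changed genes per list, not all of which are printed. ISCU was named after its values were seen. Alternatives were DESeq2 1.42.0, limma 3.58.1 on log2(FPKM + 0.1, 0.5 or 1), 3 other scalings, 2 other filters, the most abundant row alone, library sizes with all rows, and leaving out each library. Sequences came from RefSeq tables (GRCh38.p14).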

Additional observations from a re-analysis of the deposited data

How the results depend on the processing

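Over the 17 alternatives to each member's gene test, MIR210HG (log2 change 3.62 to 4.69), MIR17HG (-1.45 to -1.01), MIR31HG (0.52 to 1.47) and MIRLET7BHG (-0.97 to -0.75) kept direction and stayed past the threshold. MIR22HG did so in 16 of 17, and its most abundant transcript alone gave -0.11. MIR100HG, which passed in none, turned to -0.12 with library totals, to -0.024, -0.026 and -0.022 with limma on log2(FPKM + 0.5), log2(FPKM + 0.1) and log2(FPKM + 1), and to -0.024 for its most abundant transcript alone, and ran from -0.066 to 0.13 when 1 library was left out. The cause was not tested. With 1 library left out, 5 MIR100HG rows changed sign: ENST00000530072 ran from -0.24 to 0.43, ENST00000531381 from -1.02 to 0.35, ENST00000532350 from -0.48 to 0.012, ENST00000647967 from -0.18 to 0.18 and ENST00000650497 from -1.36 to 0.33. Changed genes numbered 11882 to 13458, changed host genes 16 to 18 and changed transcript rows 15985 to 27312. Of 1052 values for 66 other named genes, 1023 kept direction and call, 28 lost the call, 1 gained it and 0 turned. Over all genes the median was 0.02 under TMM, -0.13 under library totals and 0.13 without a filter. No paired analysis was possible because the column numbers match no replicate number in the labels. Depth limits the rows of few counts and MIR155HG.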
